A study of Mus musculus with 9 samples.

Results

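Egr1, Egr2, Egr3, Ier2, Ier3, Dusp1, Dusp6, Nr4a1, Klf2 and Klf6 are grouped here as early response genes. Most of them are transcribed within minutes when a growth factor or serum reaches a cell. The 10 were followed by name among the 20076 genes listed in at least 1 of the authors' 2 deposited tables. They were chosen with earlier results of these data known, so their counts beside all genes are description and not independent support. All 10 had a value in both tables. For 7 of them the tables print the symbol, and Egr1, Egr2 and Dusp1 were found through the gene identifier. RNA had been sequenced from cultured murine astrocytes, grown in serum-containing medium, that all carry the Ink4a-/- genotype, the loss of a cell cycle inhibitor gene. One group had received the empty vector pcDNA puro (control), another pcDNA HA-JICD1 puro, and the other pcDNA NICD puro. JICD1 is the intracellular fragment of the Notch ligand Jagged1, carrying an HA tag, and NICD1 is the intracellular fragment of the receptor Notch1, which works in the nucleus with the DNA-binding protein RBPJ. Each of the 3 groups had 3 libraries, 9 in all. Time after transfection, selection, animal age, the promoter that drives each insert and whether a group is 1 clone are not given in the sources used here.

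Most of these genes, the Egr genes above all, are low in resting cells, and the ERK branch of the MAP kinase pathway induces them through serum response factor, its Elk partners and CREB. Egr1, Egr2, Egr3, Klf2 and Klf6 encode zinc finger transcription factors, and Nr4a1 encodes an orphan nuclear receptor. Dusp1 and Dusp6 encode phosphatases that remove the activating phosphates from MAP kinases, so the pathway induces its own inhibitors. In brain cells Egr genes are widely used as a readout of recent signalling.

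Each deposited table gives, per gene, 1 log2 ratio of a transfected group over control and 1 score on a scale from 0 to 1, headed Probability. How the score was made and how the 3 libraries were combined are not given in the sources used here. No value per library was used, so the ratios carry neither a replicate error nor a p-value, the depth is unknown, and "higher" and "lower" describe only the direction of a ratio. A score of 0.8 or more is used below as a mark, and it is not a significance level. The mark was reached only by ratios of about 2-fold or more: the smallest absolute log2 ratio with such a score was 1.00 for JICD1 and 0.98 for NICD1. In bulk RNA, fewer cells expressing a gene and less RNA per cell cannot be told apart.

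As a check of the labels, Jag1 had a log2 ratio of -1.39 (score 0.759) in the authors' deposited table for JICD1 and Notch1 had 1.77 (score 0.815) in that for NICD1. The first goes against an overexpressed Jag1 fragment, if the fragment's reads count towards Jag1. The JICD1 libraries are therefore named by their label, as libraries labelled JICD1, and each direction given for them depends on it. Below, "with JICD1", "construct" and like words refer to the label and not to measured expression of the fragment. Among 10 astrocyte markers, Aqp4, the water channel, matched no gene with a ratio. Gfap, the astrocyte filament gene, stood at -1.36 and -1.52 with scores of 0.242 and 0.261 in the authors' deposited tables for JICD1 and NICD1. The glutamate transporter genes also had low scores in the authors' deposited tables, Slc1a3 at 0.03 and -0.69 (scores of 0.141 and 0.183) and Slc1a2 at 0.79 and 2.98 (0.162 and 0.283). The NICD1 value of Slc1a2 lies on a lower score curve explained with the scores of the early genes, so its control was inferred to be at a minimum. The authors' deposited tables gave S100b 0.02 and 0.76 (0.136 and 0.173) and Aldoc -1.67 and -0.72 (0.413 and 0.298). Markers with higher scores in the authors' deposited tables were Sox9 (log2 ratios of -0.84 and -1.64, scores of 0.757 and 0.851), Gja1 (-0.59 and -0.50), Glul (-0.72 and -0.12) and Aldh1l1 (-0.85 and -0.89). Expression levels are not in the tables, so the presence of these transcripts could not be measured directly.

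Promoter sequences from RefSeq (build GRCm38.p6, 250 bases before to 50 after each annotated start) were found for 7 of the 10 genes, with 11 starts in all because Egr2 has 5. Egr1, Egr3 and Ier2 had no entry. The CArG box, the binding motif of serum response factor, and TGACG, the core of the CREB element, were searched on both strands. Egr2 was the 1 gene of the 7 with a CArG box, at 4 of its 5 starts, against 1.81% of all 27025 genes with a promoter in the table. TGACG was found in 4 of the 7 (Egr2, Dusp1, Nr4a1 and Klf2), against 23.0% of all genes. The stretches that hold these motifs are shown because serum response factor and CREB are the known routes from growth factor signalling to these genes. Egr2 has 2 distinct CArG boxes, at chr10:67537484-67537513 and chr10:67537787-67537816 on the plus strand, given with the box in capitals:
Egr2 upstream box: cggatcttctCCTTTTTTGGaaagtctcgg
Egr2 downstream box: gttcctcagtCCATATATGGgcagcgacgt

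Dusp1 (chr17:26508473-26508722, minus strand) and Nr4a1 (chr15:101266596-101266845, plus strand) are shown over the 250 bases before the start, with TGACG or its reverse complement in capitals:
Dusp1: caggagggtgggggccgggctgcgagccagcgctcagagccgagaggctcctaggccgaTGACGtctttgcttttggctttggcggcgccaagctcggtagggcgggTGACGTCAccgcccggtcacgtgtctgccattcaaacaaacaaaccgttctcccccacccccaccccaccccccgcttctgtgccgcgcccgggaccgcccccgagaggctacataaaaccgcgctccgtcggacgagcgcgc
Nr4a1: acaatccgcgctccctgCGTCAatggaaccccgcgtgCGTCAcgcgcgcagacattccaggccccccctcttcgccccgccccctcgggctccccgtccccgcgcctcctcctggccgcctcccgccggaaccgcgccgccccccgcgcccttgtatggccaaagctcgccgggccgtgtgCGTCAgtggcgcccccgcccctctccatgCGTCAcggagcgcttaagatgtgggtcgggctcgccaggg

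Dusp1 holds 3 matches, of which 2 overlap on opposite strands in 1 full palindrome, and Nr4a1 holds 4, all as the reverse complement. The RBPJ motif GTGGGAA was found in 0 of the 7 genes, against 7.25% of all genes, and the Egr motif GCGTGGG also in 0 of the 7, against 5.74%. The Ets core CCGGAA, the motif of the Elk partners, was present in Egr2 and Nr4a1, against 16.7% of all genes. With only 7 genes, the counts of the RBPJ, Egr and Ets motifs cannot be set apart from these shares. A match is a run of letters and not a measured binding site. The median GC content was 60.0% over the 11 stretches and 52.7% over all promoters. Egr2 supplies several of the 11, some of them overlapping, so the first median weighs that gene most. In the GENCODE vM21 annotation the 10 genes had a median of 2.5 exons in their longest transcript, ranging from 1 in Ier2 to 8 in Nr4a1, against a median of 8 over the 15676 protein-coding genes of the tables. The median genomic span was 5287 bases for the 10 genes and 22851.5 bases for all.

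The first question was how cells given a construct differed from cells with the empty vector. Both comparisons use the same control libraries, so an error in the control moves both ratios of a gene the same way. With NICD1, 9 of the 10 early genes stood higher than control and Egr3 lower, where 48.5% of all genes stood above 0. Of the 10, 5 were 2-fold or more higher (16.6% of all genes were) and 1 was 2-fold or more lower (12.1%). A score of 0.8 or more with a ratio above 0 was held by 3 of the 10 (Egr1, Ier3 and Dusp1), against 1.64% of all genes, and none had one with a ratio below 0, against 0.97%. The counts of lower genes are too small to be set apart from their shares. Their median log2 ratio was 0.83, where that of all 19287 genes of the table was -0.02.

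In the libraries labelled JICD1 the early genes went both ways. Of the 10, 6 stood below control, where 45.5% of all genes did. A ratio of 2-fold or more lower was held by Egr2 and Egr3 (14.4% of all genes) and one of 2-fold or more higher by Klf2 (14.5%). Egr3 alone of the 10 had a score of 0.8 or more with a lower ratio, against 1.74% of all genes, and none had one with a higher ratio, against 1.07%. These JICD1 counts are too small to be set apart from the shares of all genes. The median log2 ratio of the 10 was -0.24, and that of all 18971 genes of the table was 0.05.

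**Figure D1:**
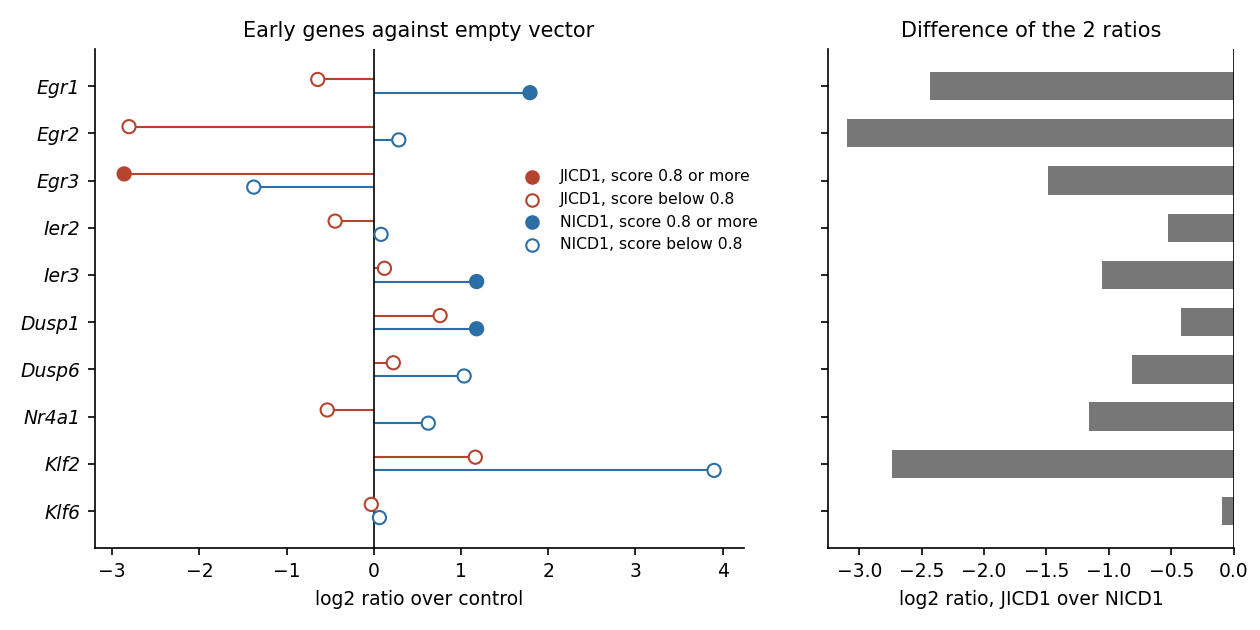
Log2 ratios of the 10 early genes over control (left; red JICD1, blue NICD1; filled points have a score of 0.8 or more) and log2 ratio of JICD1 over NICD1 (right, bars from 0). Each point is 1 deposited value with no error; the bars of all 10 genes lie below 0, from -3.09 for Egr2 to -0.09 for Klf6.

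Each Egr gene had a ratio of 2-fold or more in at least 1 comparison. Egr1, which binds GC-rich promoters and carries growth factor signals to later genes, had a log2 ratio of 1.79 (3.46-fold higher, score 0.850) with NICD1 in the authors' deposited table. In the libraries labelled JICD1 the authors' deposited table gave Egr1 -0.64 (1.56-fold lower, score 0.571). Its order from high to low was thus NICD1, control, JICD1. Egr2, better known as a factor of myelinating Schwann cells and hindbrain patterning, stood at -2.81 (7.00-fold lower, score 0.622) for JICD1 and at 0.29 (1.22-fold higher, score 0.278) for NICD1 in the authors' deposited tables. Control and NICD1 were close for Egr2 and the libraries labelled JICD1 were far below both. Egr3, itself a target of Egr1 in other cells, was lower with both constructs in the authors' deposited tables, at -2.86 (7.28-fold, score 0.849) for JICD1 and -1.38 (2.60-fold, score 0.762) for NICD1. Egr1 and Egr3, which share a DNA-binding domain and motif, therefore stood on opposite sides of control with NICD1.

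Ratios of the Ier genes were smaller. Ier3, which encodes a short-lived regulator of ERK signalling and cell survival, had 1.18 with NICD1 (2.26-fold higher, score 0.827) and 0.12 with JICD1 (score 0.384) in the authors' deposited tables. Ier2, a nuclear protein gene with 1 exon, stood at 0.08 with NICD1 (score 0.285) and at -0.44 with JICD1 (1.36-fold lower, score 0.620) in the authors' deposited tables. The Ier3 difference from control was past 2-fold with NICD1 and not with JICD1, while both Ier2 ratios were under 1.5-fold.

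Both MAP kinase phosphatase genes stood higher than control in each comparison. Dusp1, a nuclear phosphatase acting on p38, JNK and ERK, had 1.18 with NICD1 (2.26-fold higher, score 0.809) and 0.76 with JICD1 (1.69-fold higher, score 0.716) in the authors' deposited tables. Dusp6, a cytoplasmic phosphatase selective for ERK, had 1.04 with NICD1 (2.05-fold higher, score 0.792, just under the mark) and 0.22 with JICD1 (1.17-fold higher, score 0.443) in the authors' deposited tables. Dusp1 was the early gene with the second smallest gap between constructs, after Klf6.

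Nr4a1 was above control with NICD1 and below it with JICD1, at 0.62 (1.54-fold higher, score 0.617) and -0.53 (1.45-fold lower, score 0.500) in the authors' deposited tables. Klf2, a factor best known from flow-exposed endothelium and quiescent lymphocytes, had the largest ratio of the group. In the authors' deposited table for NICD1 it stood at 3.90 (15.0-fold higher), yet with a score of 0.760, and in that for JICD1 at 1.16 (2.24-fold higher) with a score of 0.288. Klf6, a ubiquitous growth-regulating factor, was level across the 3 groups, at 0.06 with NICD1 and -0.03 with JICD1 in the authors' deposited tables, with scores of 0.272 and 0.213. Markers of endothelial cells, where Klf2 is abundant, had 0 of 7 measured members with a score of 0.8 or more with NICD1. That count cannot be set apart from the 2.61% of all genes. Of the 7, 3 were 2-fold or more higher (16.6% of all genes were) and 1 was 2-fold or more lower (12.1%). By direction 4 of them stood above 0 and 3 below. Their median log2 ratio of 0.92 was the value of a gene with a low score of 0.160. The part of endothelial cells in the Klf2 value was not tested. In the libraries labelled JICD1 the endothelial median was -0.43, from 6 genes.

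**Figure D2:**
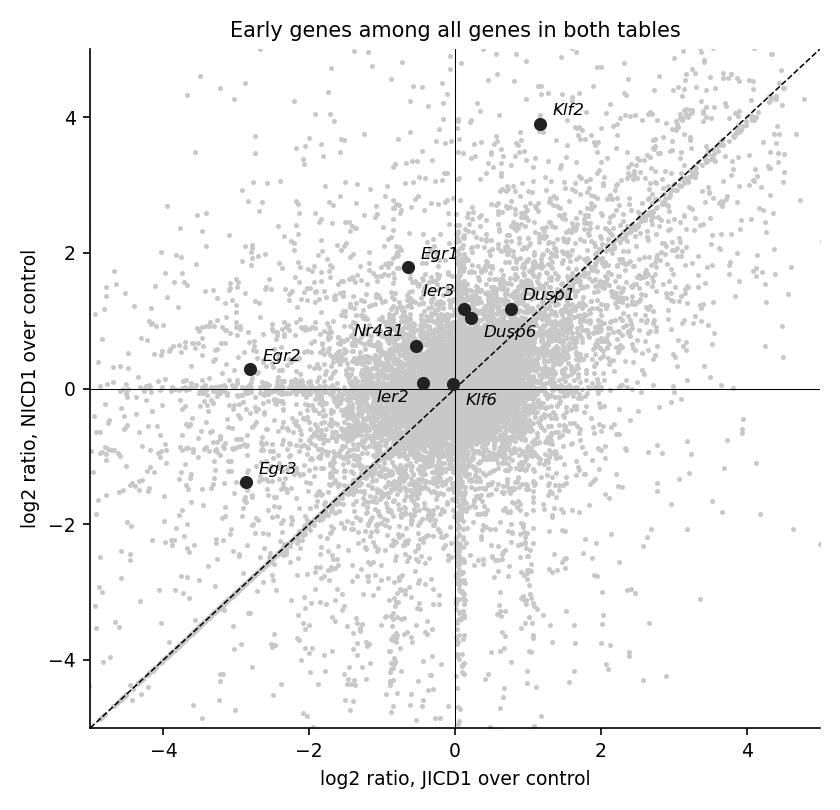
Log2 ratio with NICD1 (vertical) against log2 ratio with JICD1 (horizontal) for the 18182 genes in both tables (grey; genes beyond 5 in absolute value lie outside the axes) and the 10 early genes (black). The dashed line marks equal ratios; all 10 early genes lie above it, Klf6 almost on it. Because both axes share the control, the diagonal spread of the grey points is no result.

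The score depends on more than the ratio, and genes of equal ratio have very different scores. Each early gene was therefore placed among the 300 genes nearest to it in absolute log2 ratio. With NICD1, the score of Ier3 was above that of 99.0% of its neighbours, and those of Egr1 (95.7%), Dusp1 (95.0%), Dusp6 (94.0%), Klf2 (92.0%) and Egr3 (90.0%) also lay high. Nr4a1 (64.3%), Ier2 (56.7%) and Egr2 (22.0%) lay lower, and Klf6 stood at 80.7%. With JICD1, Egr3 stood above 93.7% of its neighbours and Egr2 above 86.3%, while Egr1 (62.3%), Klf2 (53.3%), Dusp6 (49.7%) and Nr4a1 (49.0%) were mid-range. The scores of Klf6 (83.7%), Ier3 (82.0%), Dusp1 (80.0%) and Ier2 (71.7%) lay between, on small ratios. For 694 genes the negative ratios of the tables were equal, which places both transfected groups at a common minimum, and the scores of these genes follow 1 lower curve. Genes on that curve were taken to have 1 group at the minimum; the tables mark no such group, so this is an inference from the values. None of the early gene ratios that could be judged, those with an absolute log2 of 1 or more, lay on the curve. Klf2 with JICD1 came nearest, with a score of 0.288 where the curve has 0.166.

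**Figure D3:**
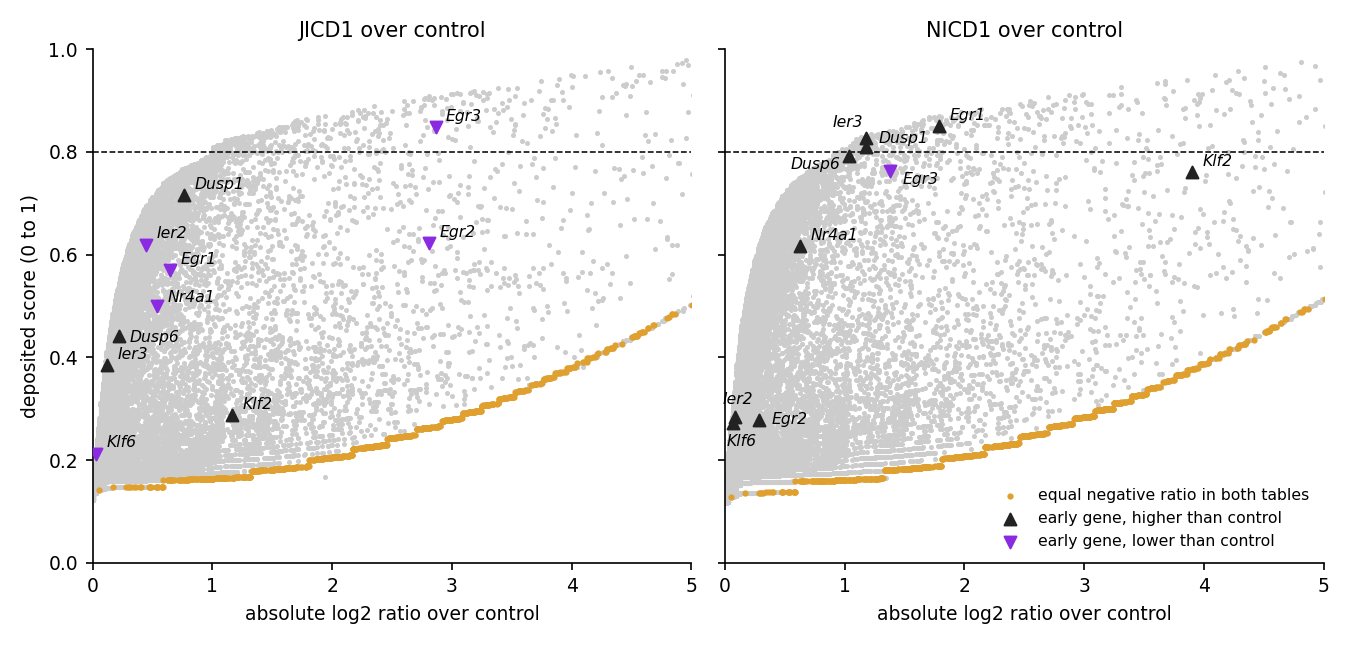
Deposited score (vertical) against absolute log2 ratio (horizontal) for JICD1 (left) and NICD1 (right). Grey points are the genes in both tables (absolute ratios beyond 5 lie outside the axes), orange points the 694 genes whose negative ratios are equal, triangles the early genes (pointing up where higher than control) and the dashed line a score of 0.8; Egr3 is above the line for JICD1, and Egr1, Ier3 and Dusp1 are above it for NICD1.

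The second question was how the constructs differed from each other. Subtracting the deposited log2 ratios cancels the control and leaves JICD1 over NICD1, for which the authors give no score. All 10 early genes had a lower value with JICD1 than with NICD1, where 43.7% of the 18182 genes in both tables did. Because the genes were chosen with earlier results of these data known, this count is no independent support. For 6 of the 10 the difference was 2-fold or more lower, against 13.6% of all genes, and for none was it 2-fold or more higher, against 10.6%. The median difference was -1.11 for the 10 and 0.04 for all genes. These 6 differences, taken between the authors' deposited tables, were -3.09 for Egr2 (8.54-fold), -2.74 for Klf2 (6.67-fold), -2.43 for Egr1 (5.41-fold), -1.49 for Egr3 (2.80-fold), -1.16 for Nr4a1 (2.23-fold) and -1.06 for Ier3 (2.08-fold). Thus every Egr gene of the group was past 2-fold. The other 4, also taken between the authors' deposited tables, were -0.81 for Dusp6, -0.53 for Ier2, -0.42 for Dusp1 and -0.09 for Klf6. Neither phosphatase gene was past 2-fold. Of the 6, Egr2 (scores of 0.622 for JICD1 and 0.278 for NICD1), Klf2 (0.288 and 0.760) and Nr4a1 (0.500 and 0.617) had no ratio at the score mark in the authors' deposited tables. Egr1 and Ier3 reached the mark with NICD1 only, and Egr3 with JICD1 only.

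Other genes of the pathway were described from lists chosen by function. Among 24 measured further early response genes (such as Ier5, Nr4a2, Klf4, Btg2 and Zfp36), 17 stood below control with JICD1 (45.5% of all genes did) and 14 above it with NICD1 (48.5%), with medians of -0.30 and 0.40. Scores of 0.8 or more in either direction were held by 1 of the 24 with JICD1, against 2.81% of all genes, and by 0 with NICD1, against 2.61%, so these counts lie near the background. The 1 gene was Sgk1, a serum-induced kinase, at -1.71 (3.27-fold lower, score 0.850), and with NICD1 it stood at 0.75 (score 0.761) in the authors' deposited tables. For JICD1 over NICD1 the median of the 24 was -0.18, with 7 of them 2-fold or more lower (13.6% of all genes were) and none 2-fold or more higher (10.6%). These further genes thus had a smaller median difference between the constructs than the 10 genes; the gap between the lists was not tested.

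The remaining MAP kinase phosphatases did not share one direction. Over 8 measured genes the medians were -0.08 with JICD1 and 0.04 with NICD1. Dusp5, a nuclear ERK phosphatase, stood at 2.14 with NICD1 (4.40-fold higher, score 0.883) and at -0.08 with JICD1 (score 0.277) in the authors' deposited tables. Dusp9 was lower with both constructs there, at -1.42 (2.67-fold, score 0.815) for JICD1 and -1.98 (3.95-fold, score 0.861) for NICD1 in the authors' deposited tables. The Sprouty, Spred and Ets genes, further feedback inhibitors and outputs of ERK, had medians of 0.28 with JICD1 and 0.15 with NICD1 over 11 measured members. None of the 11 had a score of 0.8 or more in either table, which is no result at shares of 2.81% and 2.61% of all genes.

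The next lists hold genes that carry the signal. Of 20 ERK cascade components, from Ras through Raf and Mek to the Rsk kinases, 1 had a score of 0.8 or more with JICD1 and 0 with NICD1, counts too small to be set apart from the 2.81% and 2.61% of all genes. It was Mapk3, the gene of ERK1, at -1.06 (2.09-fold lower, score 0.814) with JICD1 and -0.29 (score 0.618) with NICD1 in the authors' deposited tables. The list medians were 0.22 and -0.06. The 13 genes of serum response factor, its Elk and Mrtf partners, Creb factors and the Nab corepressors of Egr proteins had medians of -0.01 with JICD1 and -0.15 with NICD1. None of the 13 had a score of 0.8 or more, a count that at these shares of all genes sets nothing apart. Over these 13 genes the median difference of JICD1 over NICD1 was 0.10, and over the 20 cascade genes 0.13.

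**Figure D4:**
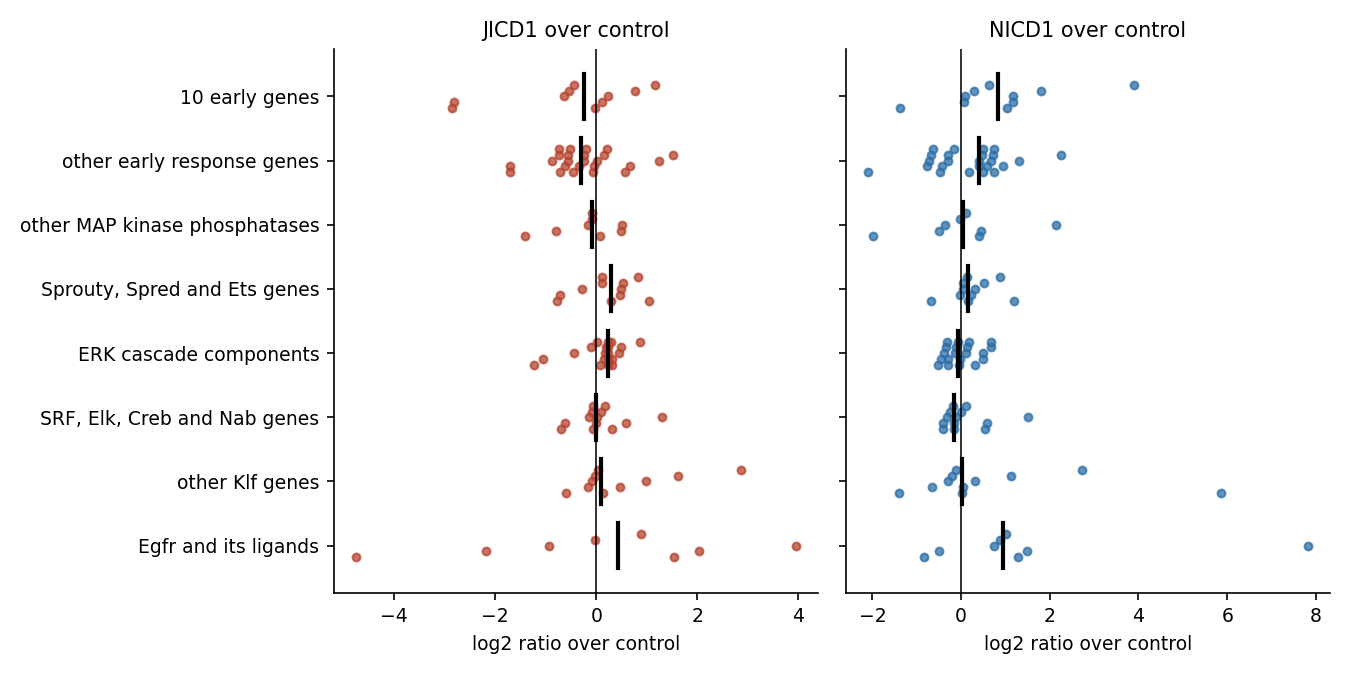
Log2 ratio over control of each measured gene (points, spread vertically for legibility) in 8 gene lists, with JICD1 (left) and NICD1 (right); black bars are list medians and the horizontal scales differ between the panels. The median of the 10 early genes is -0.24 on the left and 0.83 on the right, while those of the ERK cascade components are 0.22 and -0.06.

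Patterns most like those of Egr1 and Egr3 were sought by distance over the 2 log2 ratios, among 850 genes with a score of 0.8 or more in at least 1 table. Those of the 850 without an established symbol were passed over. Nearest to Egr1 were Ecm1 (distance 0.222; -0.85 with JICD1 and 1.71 with NICD1 in the authors' deposited tables), Hes1 (0.231; -0.54 and 1.58) and Ahr (0.241; -0.46 and 1.64). Nearest to Egr3 were Apol10b (0.111; -2.85 and -1.49 in the authors' deposited tables), Pla2g7 (0.145; -2.85 and -1.23) and Bpgm (0.264; -3.07 and -1.21). With only 2 values per gene, such likeness is loose.

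Markers of other cell types were read in the same tables. Fibroblast and pericyte markers had 4 of 5 measured members with a lower ratio and a score of 0.8 or more with JICD1, against 1.74% of all genes. Their median with JICD1 was -2.17. With NICD1 1 of 6 was scored higher (1.64% of all genes) and 1 lower (0.97%), and the median was -0.58. The 4 were Dcn (-8.67), Anpep (-3.79), Pdgfrb (-2.17) and Col1a1 (-1.19) with JICD1 in the authors' deposited table; with NICD1 Col1a1 stood at 1.74 and Dcn at -5.08 in the authors' deposited table. Microglia markers had 1 of 7 scored with JICD1 (2.81% of all genes), Tmem119 at -8.48 (score 0.962) in the authors' deposited table. With NICD1 0 of 7 were scored (2.61%), and both microglia counts are too small to be set apart from these shares. The microglia medians were -0.61 with JICD1 and 0.80 with NICD1. For JICD1 over NICD1 these lists also lay lower, with larger medians than the -1.11 of the early genes. The microglia median was -3.29, with 6 of 7 genes below 0 (43.7% of all genes) and 5 of them 2-fold or more lower (13.6%). It is the value of a gene with a JICD1 score of 0.146, and another marker lay on the lower score curve with JICD1. The microglia values are therefore weak ground for a comparison. The fibroblast and pericyte median was -2.25, with 4 of 5 genes 2-fold or more lower, again against 13.6% of all genes. The astrocyte median was -0.09 over 9 genes and the endothelial median -0.66 over 6. The part of these cell types in the early gene ratios was not tested.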

How the data were processed

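The authors' deposited tables hold a log2 ratio per gene and a score from 0.117 to 0.998, called Probability, per the file headers. The submitters' processing notes list Bowtie2, BWA and mm9 without role or version, and the sources used here do not say how reads were counted or libraries pooled. The tables held 0 other columns of per-sample values. Genes were named by identifier through NCBI and GENCODE names (18586 of 18971 and 18901 of 19287 matched), with the printed symbol otherwise.

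Computed here were folds, differences of ratios, counts past a score of 0.8 or a fold of 2, medians, and the score's percentile among the 300 genes nearest in absolute ratio. A group was inferred at a minimum where a score lay within 0.002 of the curve of genes whose negative ratios agree to 1e-06. The code was tested on simulated data. The genes and lists were chosen with earlier results of these data known. Beyond the 10 genes and the astrocyte markers, up to 4 genes per list with a score of 0.8 or more are named. So are the 3 genes with an established symbol nearest in pattern to Egr1 and to Egr3. Protein sequences planned for description were not used here. Python 3.11.15, pandas 2.3.3 and matplotlib 3.10.9 were used.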

Additional observations from a re-analysis of the deposited data

How the results depend on the processing

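Of 44 recomputed values, 32 stayed close to the main one and 12 moved. Most of the 44 are counts or shares, which were called close within 1.5-fold and cannot change sign. None of the recomputed medians changed sign. Leaving out genes of equal ratio in both tables could move no count, as none of the 10 early genes is such a gene. With a score of 0.7 or more, 1 early gene was marked higher with JICD1 (0 at 0.8), and 5 higher and 1 lower with NICD1 (3 and 0 at 0.8). With 0.9 or more, 0 were marked lower with JICD1 and 0 higher with NICD1. At 1.5-fold, 2 were higher with JICD1. With the printed symbols only, which leave out Egr1, Egr2 and Dusp1, 1 gene was 2-fold lower with JICD1 and 3 were 2-fold higher with NICD1, 1 of them scored, and the medians were -0.029 and 0.62. For JICD1 over NICD1, 3 genes were 4-fold or more lower. Subtracting each table's median left 10 of 10 early genes lower in JICD1 than in NICD1. No paired analysis was possible because each table holds 1 pooled ratio per gene, without separate libraries; for the same reason no library could be left out and depth could not be assessed.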

Other observations

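The genes of the Egf receptor and its ligands showed some of the widest ratios of the lists read here. Egfr, the receptor gene, stood at -4.76 (27.0-fold lower, score 0.958) in the libraries labelled JICD1 and at -0.51 (score 0.663) with NICD1 in the authors' deposited tables. Areg, the amphiregulin ligand gene, stood at 7.82 with NICD1 (score 0.966) and at 3.95 with JICD1 (score 0.554) in the authors' deposited tables. Over the 8 genes the medians were 0.44 with JICD1 and 0.94 with NICD1. Some of the 8 had low scores, down to 0.158 with JICD1 and 0.245 with NICD1. The median of JICD1 over NICD1 was -1.12, with 6 of the 8 below 0 (43.7% of all genes were). For 4 the difference was 2-fold or more lower (13.6%), and for 0 it was 2-fold or more higher (10.6%). The part of the receptor and its ligands in the early gene ratios was not tested.

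Among the other Klf genes 1 of 11 measured with NICD1 had a score of 0.8 or more, against 2.61% of all genes. With JICD1 0 of 10 had one, against 2.81%, and neither count can be set apart from these shares. The 1 gene was Klf9, a hormone-responsive factor, at 1.13 (2.19-fold higher, score 0.807) with NICD1 in the authors' deposited table. With JICD1 Klf9 stood at 0.47 (score 0.615) in the authors' deposited table. The list medians were 0.09 over 10 genes with JICD1 and 0.02 over 11 with NICD1, and that of JICD1 over NICD1 was 0.22 over 10, while Klf2 had -2.74.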
